A study of Mus musculus with 24 samples.

Results

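The regions described here are the 8 brain regions of BMM-cKO mice, out of 24 regions in the series, chosen by their label: the 4 male regions numbered 1 to 4 on the slide called scan 2 were set against the 4 female regions numbered 13 to 16 on scan 3. They are called male regions 1 to 4 and female regions 1 to 4 below, in that order. Every region came from mouse brain on a GeoMx instrument, which counts barcodes released from a drawn area of a section after hybridization with 1 probe set per target. The other 16 regions were 4 each of MG-cKO males, WT males, MG-cKO females and WT females, and they enter only where stated. The labels call the cell type of all regions macrophage and the genotypes BMM-cKO, MG-cKO or WT. They do not spell out these names, the promoter that drove the deletion, the animals' ages or how many animals gave the regions. The series title names macrophage Lyn kinase, sex and inflammation of the brain after subarachnoid haemorrhage, a bleed into the space around the brain, and the design text marks the WT group as SAH. It does not say so of the knockout groups. The question addressed is how brain-area and cell-type genes differed between the male and female BMM-cKO regions.

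Scan, sex and, within BMM-cKO, library plate (B for males, C for females) cannot be told apart. No label links a region to an animal, and the design text speaks of 4 regions per brain slice, so regions of a group may share an animal and every p-value over regions is then too small. The male region names carry a plus sign after TMEM119 and the female names do not. If the smallest step between the values of a region is worth 1 barcode tag, the male libraries held an estimated 6673091 to 10780460 tags and the female ones 1910178 to 7014982. Levels below are given as multiples of each region's negative probe, which matches no mouse transcript, so that 1 is background. The median target lay at 1.01 ± 0.00683 times the negative probe in male and 1.08 ± 0.0148 times in female regions (SD, n = 4 each), so a target that kept its rank reads slightly lower in males on this scale. In the tests each region was centred on its median target instead.

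A brain section is a mosaic. The lateral hypothalamus holds neurons that make melanin-concentrating hormone (Pmch) or orexin (Hcrt), the thalamus is marked by the transcription factor Tcf7l2, white matter by myelin genes such as Mobp, and the choroid plexus, the epithelium that secretes cerebrospinal fluid, by transthyretin (Ttr). Microglia are the resident macrophages of the tissue, and border-associated macrophages line the meninges, the vessels and the choroid plexus. A drawn region can hold several cell types. The region names carry stain names such as TMEM119 and do not say whether barcodes came from all cells inside it.

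The label macrophage was not borne out by the levels. In the list of 24 homeostatic microglia genes the median member lay at 1.06 times the negative probe in male and 1.08 times in female regions, and 1 member exceeded 2 times in each group, namely Aif1, which encodes Iba-1. The 11 border-associated macrophage genes had a median of 1.00 times in male and 0.962 times in female regions, with 0 members above 2 times. Of 24 neuron genes, 8 exceeded 2 times in male and 18 in female regions. Tmem119, the microglial stain target, read 0.840, 0.871, 0.824 and 0.947 in male regions 1 to 4 and 0.862, 0.888, 0.786 and 0.817 in female regions 1 to 4. It was at background in all 8. Lyn, the Src-family kinase named in the title, read 1.10, 1.22, 1.11 and 1.16 in male regions, against 1.17, 1.22, 1.08 and 0.979 in female regions. The groups overlapped, and the limma test gave a log2 change of 0.16 ± 0.09 (SE, adjusted p = 0.191). The files do not place the Lyn probe relative to the deletion, so it does not check the genotype. Of the Y-linked genes, Ddx3y read 0.949, 1.11, 0.979 and 1.02 in male and 0.742, 0.905, 0.751 and 0.817 in female regions. Its male values all lay above its female values, as did those of Eif2s3y (means 1.02 and 0.810) and Kdm5d (0.694 and 0.563), but near or below the negative probe. In a fit of all 19962 targets the Y-linked trio was higher in males by 0.43, 0.42 and 0.40 on the log2 scale, in that order (limma adjusted p = 0.00363, 0.00153 and 0.0212). Of the 9 Y-linked genes measured 4 were higher in that fit, against 1.9% of all targets. In the fit of the 9981 tested targets, which held 4 of the 9, 0 passed.

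The male regions resembled one another more closely than the female regions did. Over the 9981 tested targets, Pearson's r between regions was 0.938 to 0.958 in the 6 male pairs, 0.660 to 0.870 in the 6 female pairs and 0.647 to 0.791 in the 16 pairs of a male and a female region. The median SD of log2 level over 4 regions was 0.0651 in males and 0.129 in females over the same targets. Among the 928 targets at 2 times the negative probe or more in either group it was 0.0685 and 0.179, and 4 against 132 targets had an SD above 0.5. A target can enter that set through 1 high female region, so the set itself widens the contrast. These correlations run across targets measured on the same slides, and targets are not replicates. Counting the targets that read at least 2 times the negative probe in a region and at least 2-fold above the next region of the group gave 0, 1, 1 and 1 in male regions 1 to 4 and 9, 4, 71 and 16 in female regions 1 to 4. The genes named from these counts were picked after their values were seen.

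Female region 1 stood apart by myelin genes and by Gfap. Mobp, a myelin protein gene of oligodendrocytes, read 4.41, 1.88, 1.76 and 3.36 in male regions, against 11.4, 1.71, 0.970 and 1.16 in female regions. Mobp thus marked 1 female region strongly and male regions 1 and 4 to a lesser degree. Gfap, the astrocyte filament gene, read 1.17 to 1.24 in males, against 5.75 in female region 1 and 1.12 to 1.86 in the other female regions. The astrocyte genes Clu and Apoe were highest in female region 3. The groups overlapped for Mobp and Gfap, and neither passed the limma test (adjusted p = 0.576 and 0.11). Without female region 1, Mobp was higher in males by a log2 change of 1.21 (adjusted p = 0.0129), so that 1 region decides its call.

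Female region 2 stood apart by genes of inhibitory neurons. Gad1, which makes the transmitter GABA, read 1.14, 1.53, 1.46 and 1.67 in males, against 3.49 in female region 2 and 0.968 to 1.13 in the other female regions. Gad2, the second such enzyme, reached 3.15, the GABA transporter of vesicles Slc32a1 2.72 and the peptide gene Sst 2.62 in the same region. In the other 3 female regions these genes read 0.652 to 1.03, at background. Of the 11 tested inhibitory-neuron genes only the transcription factor gene Dlx5 passed the test (log2 0.44, adjusted p = 0.00465), and the members with the highest levels overlapped between the groups.

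Female region 3 stood apart by choroid plexus genes. Ttr read 0.972, 1.14, 1.11 and 1.15 in males, against 361 times the negative probe in female region 3 and 1.06 to 1.35 in the other female regions. Enpp2, a secreted phospholipase abundant in choroid plexus, read 1.16 to 1.30 in males, against 104 in female region 3 and 1.21 to 1.98 in the other female regions. The chloride channel protein gene Clic6 (8.84), the ageing-related hormone gene Kl (8.26) and the collagen gene Col9a3 (8.19) were high in this region too and read 0.629 to 1.27 in the other female regions. Ppp1r1b, which encodes the dopamine-signalling protein DARPP-32 of striatal neurons, read 0.723 to 0.776 in males, against 9.24 in female region 3 and 0.829 to 1.39 in the other female regions. The striatal list as a whole was not raised there, with a median of 1.13 against 1.15 to 1.34 in the other female regions. The median of the 19 choroid plexus and ependyma genes was 2.85 in this region and 0.979 to 1.15 in the other 7. None of Ttr, Enpp2, Clic6, Kl, Col9a3 and Ppp1r1b passed the test between the groups (adjusted p = 0.140, 0.101, 0.0893, 0.172, 0.30 and 0.0678), and 1 of 4 female regions carried the signal. Without that region the log2 change of Ttr was 0.02 and that of Col9a3 0.25. Rarres2, a chemoattractant precursor, and Tmem212 were the 2 of 11 tested members that passed, both higher in males by 0.28 at levels under 2 times the negative probe. The list therefore had 2 called risers while its median log2 change was -0.42. No member was higher after division by the negative probe, in the fit of all targets or without male region 3.

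Female region 4 stood apart by neuronal genes that include a thalamic marker. Tcf7l2 read 0.947, 0.894, 0.827 and 0.837 in males, against 1.96, 1.12, 0.956 and 5.38 in female regions 1 to 4. Npcd, a neuronal pentraxin gene with a chromo domain, read 0.794 to 0.973 in males, against 15.9 in female region 4 and 0.821 to 1.72 in the other female regions. Both were lower in male than in female regions by the test, Tcf7l2 by a log2 change of -0.95 ± 0.27 (SE, adjusted p = 0.0145) and Npcd by -1.34 ± 0.44 (0.0362). The groups overlapped for Npcd. For Tcf7l2 they were apart by a narrow margin as multiples of the negative probe and overlapped on the centred scale of the test. Without female region 4 the change of Tcf7l2 was -0.44 (adjusted p = 0.0433). Npcd lost its call whichever male region was left out and without female region 4 (-0.43, adjusted p = 0.0961). With only the 2 groups in the fit neither passed (adjusted p = 0.144 and 0.206). Zic1, a transcription factor gene of medial thalamus, and Adarb1, an RNA editing enzyme, were the other called members among 10 tested thalamic genes, at -0.68 and -0.29. No member of that list was higher in males.

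**Figure D1:**
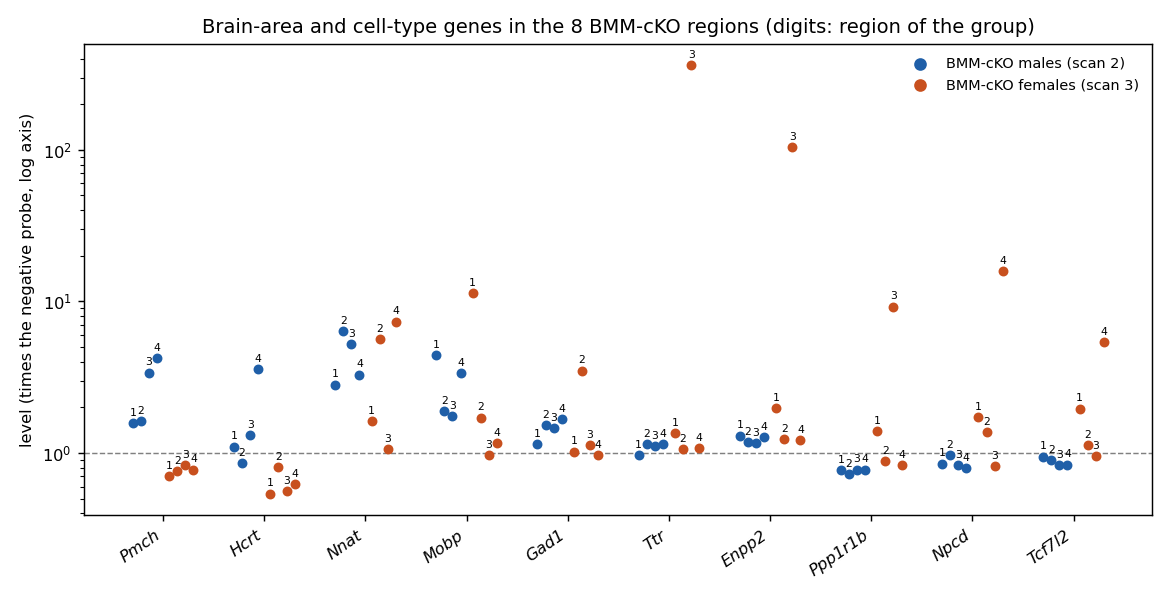
Levels of 10 brain-area and cell-type genes in each BMM-cKO region, on a log axis in multiples of the negative probe (dashed line at 1). Blue points are the 4 male regions and orange points the 4 female regions, with the region number above each point. Each female region stands out by different genes, with Ttr at 361 in region 3, Mobp at 11.4 in region 1 and Npcd at 15.9 in region 4, and the Pmch points of the males lie above all those of the females.

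The male regions carried the lateral hypothalamic peptide gene Pmch. It read 1.57, 1.62, 3.39 and 4.20 in male regions 1 to 4, against 0.706, 0.758, 0.829 and 0.777 in female regions 1 to 4. All 4 male values lay above background and all 4 female values below it. Pmch was 3.45-fold higher in males (log2 1.79 ± 0.24 SE, limma adjusted p = 1.87e-05), and it was the 1 target of 9981 that passed the test as more than 2-fold higher, while 37 passed as more than 2-fold lower. Hcrt, the orexin precursor gene of neighbouring neurons, read 1.10, 0.852, 1.31 and 3.58 in male and 0.539, 0.810, 0.559 and 0.626 in female regions. The groups did not overlap, but most of the signal came from male region 4 and the change did not pass the test (log2 1.32 ± 0.52, adjusted p = 0.0779). Of 20 tested hypothalamic genes 2 were higher, Pmch and the feeding peptide gene Agrp (0.24 ± 0.07, adjusted p = 0.0160), and 0 lower. Agrp did not pass in the fit of all targets (adjusted p = 0.0678) or after division by the negative probe (0.13, adjusted p = 0.251), nor without male region 3 (0.23, 0.0528). The imprinted gene Nnat, abundant in hypothalamus, read 2.82, 6.36, 5.24 and 3.29 in males, against 1.63, 5.61, 1.06 and 7.36 in females, and did not pass (adjusted p = 0.236).

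Promoters are shown for reference for Pmch, for Hcrt, whose rise did not pass the test, and for Nrgn, a leading fall. They are from RefSeq (GRCm38.p6, 250 bases before to 50 after the start of the gene). Pmch lies on chr10:88090822-88091121 (plus strand), Hcrt on chr11:100762882-100763181 (minus strand) and Nrgn on chr9:37552696-37552995 (minus strand). Capitals mark TATAAA, searched on both strands. It began 27 bases before the start in Pmch and 33 bases before it in Hcrt, was not found in the Nrgn window, and occurs in 13.6% of 32851 mouse promoters of this length. The G and C content was 39.0% in Pmch, 53.3% in Hcrt and 59.3% in Nrgn, against a median of 52.7%.
Pmch: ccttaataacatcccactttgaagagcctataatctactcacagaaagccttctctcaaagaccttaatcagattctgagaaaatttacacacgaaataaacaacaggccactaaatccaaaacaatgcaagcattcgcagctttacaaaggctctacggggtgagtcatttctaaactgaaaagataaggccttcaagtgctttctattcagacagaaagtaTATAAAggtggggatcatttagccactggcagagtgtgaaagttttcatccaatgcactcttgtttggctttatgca
Hcrt: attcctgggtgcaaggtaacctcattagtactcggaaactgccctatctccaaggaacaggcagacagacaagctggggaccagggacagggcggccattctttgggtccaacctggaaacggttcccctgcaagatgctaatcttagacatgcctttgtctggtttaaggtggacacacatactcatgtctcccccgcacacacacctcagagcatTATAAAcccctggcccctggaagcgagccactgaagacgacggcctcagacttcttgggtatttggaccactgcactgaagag
Nrgn: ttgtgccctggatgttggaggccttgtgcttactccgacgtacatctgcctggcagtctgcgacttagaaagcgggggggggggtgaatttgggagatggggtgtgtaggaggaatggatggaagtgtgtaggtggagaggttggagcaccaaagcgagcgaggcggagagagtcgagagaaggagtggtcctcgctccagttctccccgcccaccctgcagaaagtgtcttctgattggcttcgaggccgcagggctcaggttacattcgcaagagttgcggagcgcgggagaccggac

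Over all tested targets, 565 were higher (5.66%) and 1117 lower (11.2%) in male than in female BMM-cKO regions, by limma on centred log2 values with a Benjamini-Hochberg adjusted p under 0.05. The split depended on the scale. On the values as deposited, where the median target lay 1.22 higher in males on the log2 scale with a geometric mean of its own for each group, 9894 were higher and 0 lower. Divided by the negative probe, where the median target lay 0.10 lower, 36 were higher and 2086 lower. Quantile normalization gave 979 higher and 1063 lower, and subtraction of the negative probe gave 326 higher and 394 lower of 1315 targets. Directions below are relative to the median tested target.

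The share of falls was larger among targets at higher levels in either group. Of the 185 targets at 3 times the negative probe or more in either group, 106 (57.3%) were lower in males and 1 was higher. That 1 was Eno3, a muscle-type enolase gene named after its values were seen, with means of 3.60 in male and 3.15 in female regions (log2 0.31 ± 0.10 SE, limma adjusted p = 0.0302). Of the 928 targets at 2 times or more, 348 were lower and 49 higher. A target enters these sets through the group where it is higher. More targets lay above 3 times in female than in male regions (means 1.05% and 0.259%). An excess of falls is thus partly built into the sets, and their counts cannot show that falls follow level. The share of all 19962 targets above 2 times the negative probe was 1.86% to 2.72% in male and 3.24% to 5.60% in female regions, and averaged 2.24% ± 0.378 in male and 4.59% ± 1.14 in female regions (SD, n = 4 each; exact two-sided permutation p = 0.0286, the smallest that 4 against 4 regions allow). It averaged 2.39% in MG-cKO males and 6.91% in MG-cKO females, and 2.32% in WT males and 3.20% in WT females. The SD of log2 level within a region was 0.43 ± 0.02 in males and 0.49 ± 0.02 in females. The narrower range of signal in male regions moved with the falls of abundant genes, and its part in them was not tested.

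**Figure D2:**
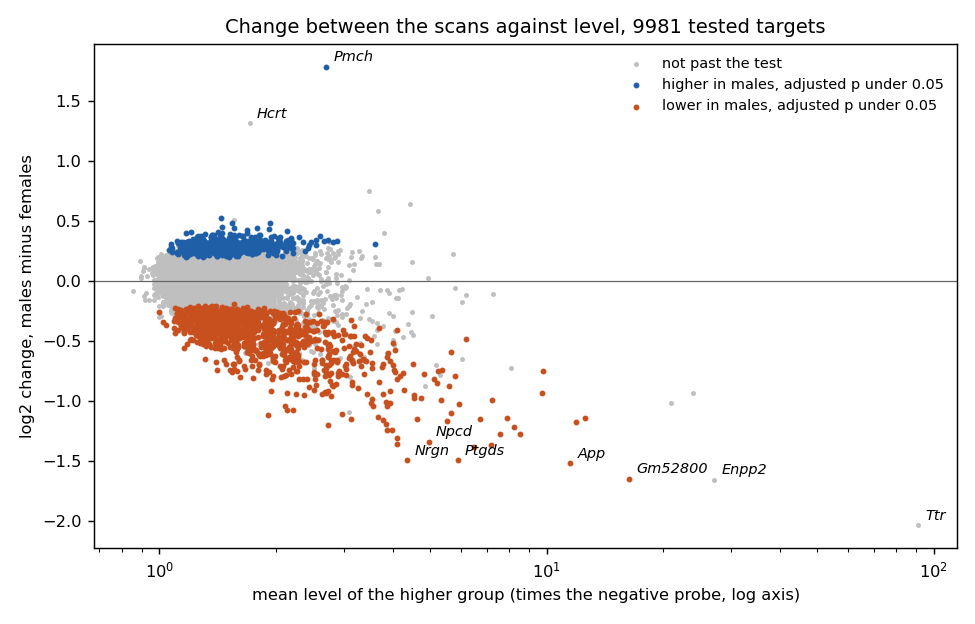
Log2 change, males minus females (vertical axis), against the mean level of the higher group in multiples of the negative probe (horizontal log axis) for the 9981 tested targets. Blue and orange points passed the test as higher or lower in males and grey points did not. Most points at high levels lie below 0, and the blue point farthest above it is Pmch at 1.79. Because the horizontal axis takes the higher group, targets high in female regions alone also reach its right side.

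The leading falls included genes of neurons. App, the amyloid precursor protein gene, read 3.49, 3.89, 3.26 and 3.95 in male regions, against 9.76, 9.51, 14.6 and 12.3 in female regions. The groups did not overlap and App was lower by a log2 change of -1.52 ± 0.25 (SE, adjusted p = 0.000164). Nrgn, which encodes the calmodulin-binding protein neurogranin of forebrain excitatory neurons, read 1.46, 1.46, 1.29 and 1.28 in male and 4.06, 6.50, 3.88 and 3.02 in female regions (-1.5 ± 0.23, adjusted p = 9.82e-05). Every female region was at least 3 times background for it, and no male region reached 1.5 times. Camk2a, a subunit of the calmodulin kinase of excitatory synapses, read 1.14, 1.45, 1.51 and 1.22 in male and 2.80, 3.29, 7.80 and 2.57 in female regions (-1.36 ± 0.23, adjusted p = 0.000229). The kinase inhibitor gene Camk2n1 (-1.28) and the neurochondrin gene Ncdn (-1.25) also fell. Atp1b1, the beta subunit of the sodium pump, read 2.19, 2.49, 2.42 and 2.94 in male and 5.54, 5.72, 8.97 and 8.44 in female regions (-1.37 ± 0.22, adjusted p = 0.000164). Slc22a17, a membrane transporter gene, was lower by -1.38, the open reading frame 2310061I04Rik by -1.31 and the predicted gene Gm52800 by -1.65. None of these 9 targets overlapped between the groups, but leading falls were named among targets without overlap, so that is no result. Over all tested targets 12.7% were lower in males without overlap. Each of the 9 kept its sign on the deposited scale, as falls larger than that scale's shift of 1.22 do. Their values in each female region differed, as Slc22a17 was highest in region 3 at 12.4 and Camk2n1 in region 4 at 14.5. App, Camk2a and Atp1b1 were also highest in female region 3. The median of the 24 neuron genes was 1.24 there, against 1.53 to 1.64 in male regions and 2.27 to 3.93 in the other female regions. The neuron list as a whole thus did not follow these genes in that region.

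Ptgds, the prostaglandin D synthase gene of meninges and choroid plexus, read 1.55, 1.08, 0.847 and 1.23 in males, against 7.20, 1.25, 14.0 and 1.22 in females. It was high in 2 of 4 female regions, overlapped between the groups and fell by a log2 change of -1.5 ± 0.44 (adjusted p = 0.0201). Its call was lost without female region 3 (-0.85, adjusted p = 0.0713), without female region 1 (-1.14, 0.0889), without male region 3 (-1.35, 0.0692) and with only the 2 groups in the fit (-1.5, 0.152). It was the 1 called member among 8 tested meningeal fibroblast genes.

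**Figure D3:**
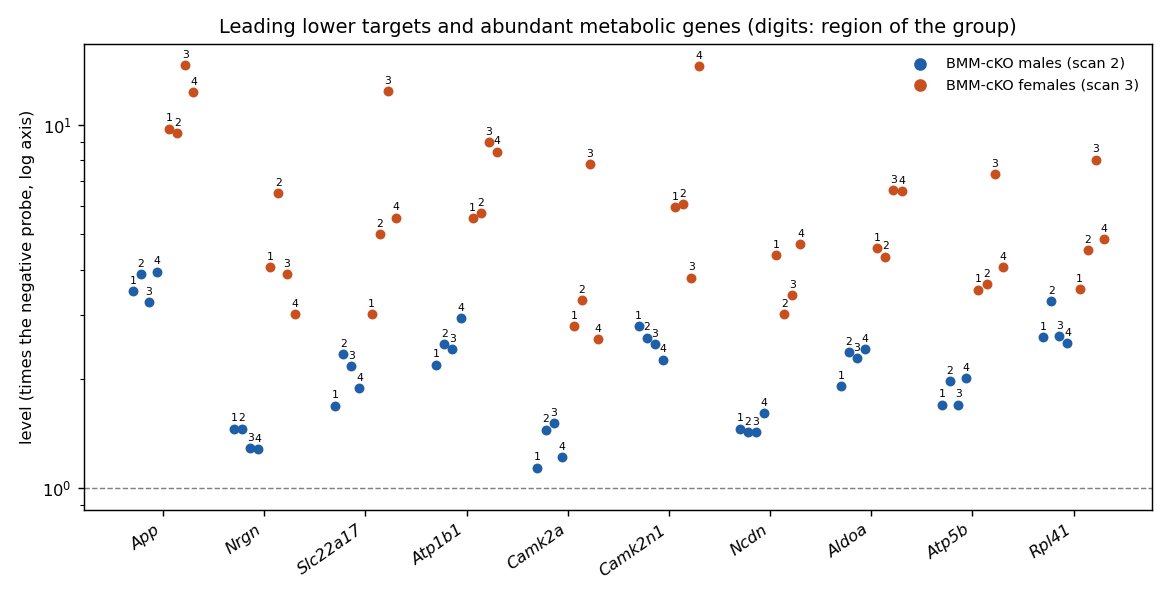
Levels of 7 leading lower targets and of 1 gene each of glycolysis (Aldoa), ATP synthase (Atp5b) and the ribosome (Rpl41) in the 8 BMM-cKO regions, on a log axis in multiples of the negative probe. For each gene the 4 blue male points lie below the 4 orange female points, and the female points are spread more widely.

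Cell-type lists, chosen with earlier results of these data known, are given by counts beside the share over all tested targets (5.66% higher, 11.2% lower). That share is not matched for level. Of the 928 tested targets at 2 times the negative probe or more in either group, 37.5% were lower. In female regions 18 of 24 neuron genes exceeded 2 times. Of 24 neuron genes 6 were lower and 0 higher, with a median log2 change of -0.45 against 0.01 over all tested targets, and the median was 0.75 on the deposited scale. After Atp1b1 they were Thy1, a neuronal surface protein (-1.02), Ndrg4 (-0.98), the synaptic vesicle gene Vamp2 (-0.82) and the synapsins Syn2 (-0.70) and Syn1 (-0.57). Leaving out 1 region gave 3 to 17 lower: 17 without female region 3, which has the choroid plexus genes, 3 without female region 4, 4 without female region 2 and 4 without male region 1 or 3. Of 16 tested genes of cortical and hippocampal excitatory neurons 3 were lower, namely Nrgn, Camk2a and the kinase-like gene Camkv (-0.76), and the transcription factor gene Emx1 was higher (0.21). No member of that list was higher after division by the negative probe, in the fit of all targets or with only the 2 groups in the fit. The same held in all but 1 of the fits that left out 1 region. The vesicular glutamate transporter Slc17a7, the defining gene of that list, read 0.994, 1.25, 1.10 and 1.20 in males, against 2.30, 1.37, 1.77 and 1.22 in females, and did not pass (-0.40 ± 0.15, adjusted p = 0.0644).

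Of 17 tested astrocyte genes 4 were lower. The lipoprotein gene Clu read 2.29, 2.53, 2.48 and 2.11 in male and 4.85, 3.71, 11.7 and 3.46 in female regions (-1.03 ± 0.22, adjusted p = 0.00186). Apoe, the other major astrocyte lipoprotein, read 4.88, 6.24, 5.46 and 4.17 in males, against 10.4, 7.36, 14.4 and 7.04 in females (-0.75 ± 0.26, adjusted p = 0.0438), a call that was lost under most alternatives and turned to 0.24 under quantile normalization. The folate enzyme Aldh1l1 (-0.43) and the transcription factor gene Sox9 (-0.35) were the other 2, and leaving out 1 region gave 2 to 5. The list's median change was -0.13 and turned to 0.05 under quantile normalization and to 1.07 on the deposited scale. Of 16 tested myelin and oligodendrocyte genes and 6 of their precursors, 0 passed in either direction by limma.

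Of 15 tested homeostatic microglia genes 4 were higher in males, 0 were lower and 11 did not pass. Aif1 read 2.38, 2.65, 2.64 and 2.48 in male regions, against 2.35, 1.94, 2.35 and 2.05 in female regions, and the groups did not overlap (0.34 ± 0.10, adjusted p = 0.0178). The cathepsin Ctss, a lysosomal protease of microglia, read 1.76, 1.85, 1.66 and 1.47 in male and 1.46, 1.41, 1.25 and 1.30 in female regions (0.42 ± 0.10, adjusted p = 0.00589). With the complement gene C1qb (0.29) and the purinergic receptor gene P2ry12 (0.23) they were the 4 that passed. The list's median change was 0.17. None of the 15 passed when regions were divided by the negative probe (median 0.06), and leaving out 1 region gave 1 to 7. As a yardstick, 1195 probes for olfactory, vomeronasal and taste receptors and hair proteins, without a known place in brain, had log2 changes whose central 95% ran from -0.216 to 0.296 in the fit of all targets. C1qb (0.27) and P2ry12 (0.21) lay inside that range there, and Aif1 (0.33) and Ctss (0.41) above it. The median such probe lay at 0.909 times the negative probe, so the range is not matched for level. Of the 317 such probes among the tested targets, 17.0% were higher in males. The range therefore cannot set Aif1 and Ctss apart from such probes.

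The activated-microglia list went the other way, with 3 of 9 tested members lower: Apoe, the cathepsin Ctsd (-0.74) and the cathepsin Ctsl (-0.44). Ctsd read 1.74, 1.93, 1.86 and 1.77 in males, against 1.88, 2.52, 8.92 and 2.82 in females. Its highest value was in female region 3. Without that region 0 of 9 members passed by limma, and the median change was -0.15 in place of -0.37. Without any 1 male region the count was 1, with only the 2 groups in the fit it was 0, and on the deposited scale the median turned to 0.83. Many cell types express these genes.

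Among the remaining immune lists few members passed. Stab1, a scavenger receptor of border-associated macrophages, was higher by 0.32 (1 of 4 tested) and the interferon-induced protease Usp18 by 0.30 (1 of 7). Of 5 tested complement genes C1qb was the 1 that passed. Of 5 infiltrating-monocyte, 4 neutrophil, 3 lymphocyte and 5 inflammatory cytokine genes tested, 0 passed by limma. None of Stab1, Usp18 and C1qb passed when regions were divided by the negative probe (adjusted p = 0.170, 0.129 and 0.225). In the endothelial list Pecam1 was higher (0.30) and Bsg lower (-0.96) of 11 tested. Bsg, a lactate transporter partner that the choroid plexus also makes, read 1.61 to 2.00 in males, against 10.2 in female region 3 and 2.44 to 2.85 in the other female regions. Of 5 pericyte and 2 erythroid genes 0 passed.

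The lists with the highest share of falls were those of energy metabolism and protein making. In female regions 14 of 27 oxidative phosphorylation, 13 of 16 glycolysis, 17 of 24 ribosomal and 6 of 16 chaperone genes measured exceeded 2 times the negative probe. Of all tested targets at 2 times or more in either group, 37.5% were lower. The 11.2% over all tested targets is therefore not matched for level. Of 25 tested genes of oxidative phosphorylation 20 were lower in males and 0 higher, with a median of -0.50. The ATP synthase gene Atp5b read 1.70, 1.97, 1.70 and 2.01 in male and 3.52, 3.65, 7.33 and 4.07 in female regions (-1.15 ± 0.20, adjusted p = 0.000247), and the cytochrome oxidase gene Cox8a fell by 1.04 on the log2 scale. Of 16 glycolysis genes 10 were lower (median -0.55). Aldolase, Aldoa, read 1.91, 2.37, 2.28 and 2.41 in male and 4.59, 4.34, 6.61 and 6.58 in female regions (-1.17 ± 0.20, adjusted p = 0.000327), and Gpi1 (-1.14), Gapdh (-0.997) and Pkm (-0.79) fell too. Of 24 ribosomal protein genes 15 were lower (median -0.40), led by Rpl41 with 2.61, 3.28, 2.62 and 2.51 in male and 3.54, 4.52, 8.03 and 4.86 in female regions (-0.75 ± 0.19, adjusted p = 0.00693). Of 13 tested chaperone genes 7 were lower (median -0.29), led by Hsp90ab1 (-0.80). These 4 medians were negative under division by the negative probe, quantile normalization and subtraction of it, and turned to 0.70, 0.65, 0.81 and 0.92 on the deposited scale, in the order of the lists. Without female region 3, where the median member of the oxidative phosphorylation, ribosomal and chaperone lists was highest, the lower counts were 17, 10, 10 and 5 in the same order. The lowest count of ribosomal genes was 9, without male region 1. In values pooled over a region, fewer cells of a type and less RNA per cell cannot be told apart.

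**Figure D4:**
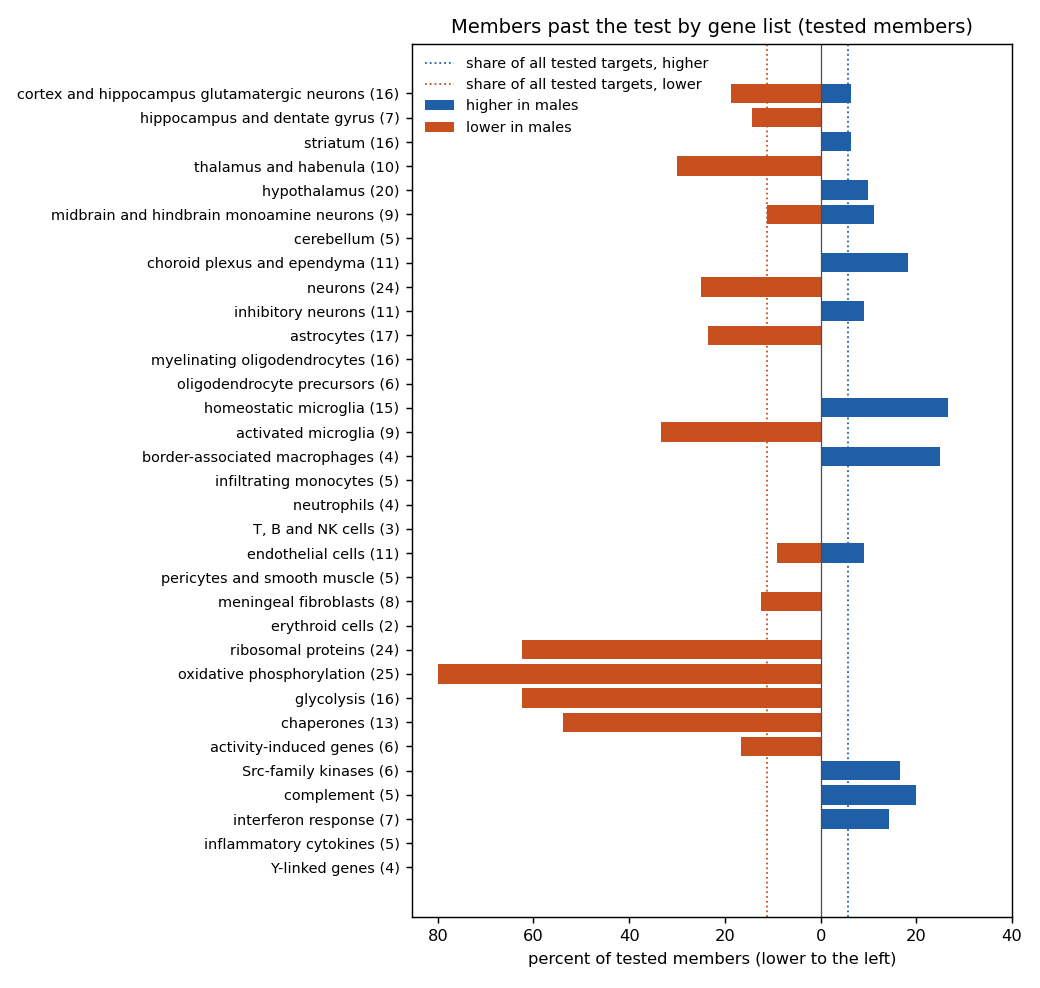
Share of the tested members of each gene list that passed the test as higher (blue, to the right) or lower (orange, to the left) in BMM-cKO males, with the number tested in brackets. Dotted lines give the shares over all 9981 tested targets, 5.66% higher and 11.2% lower, and oxidative phosphorylation has the longest bar with 20 of 25 lower. These shares are not matched to the lists for level.

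In the remaining area lists, the endoplasmic reticulum gene Wfs1 was lower (-0.51; 1 of 7 hippocampal genes), the muscle-type actinin gene Actn2 higher (0.21; 1 of 16 striatal genes), the homeobox gene En2 lower (-0.70) and the serotonin-synthesis gene Tph2 higher (0.30) of 9 midbrain and hindbrain genes. The higher call of the striatal and of the midbrain and hindbrain list was lost after division by the negative probe, in the fit of all targets and in all but 1 of the fits that left out 1 region, and that of Tph2 also with only the 2 groups in the fit. Of 5 cerebellar genes 0 passed by limma. En2 read 1.04, 1.08, 0.973 and 1.01 in male and 2.05, 1.66, 1.76 and 1.78 in female regions, without overlap. The striatal peptide gene Penk read 2.54, 2.75, 2.49 and 2.45 in males, against 2.02, 3.24, 2.44 and 2.31 in females, and did not pass (adjusted p = 0.491). Nptx2, an activity-induced synaptic gene, was the 1 lower member of 6 (-0.47).

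Apart from Pmch, the leading rises were small. Adam34, a testis-type metalloproteinase gene, read 1.94, 1.96, 1.95 and 1.84 in male and 1.44, 1.58, 1.51 and 1.65 in female regions (0.43 ± 0.07, adjusted p = 0.000299). The Toll-like receptor relative Cd180 rose by 0.44, the chaperone gene Dnajc2 by 0.42 and the chemokine gene Xcl1 by 0.48. The vomeronasal receptor genes Vmn2r19 (0.48), Vmn1r226 (0.40) and Vmn1r206 (0.39) were among the 10 largest rises without overlap at 1.5 times the negative probe or more. Tmem202 (0.52) and Tmprss11c (0.45) were among the 5 largest at any level. Brain is not known to use vomeronasal receptors. Of 317 tested probes for receptors and hair proteins of that kind, 17.0% were higher in males, against 5.66% over all tested targets. In the fit of all 19962 targets, 2.85% of 1195 such probes were higher, against 1.90% over all.

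The difference between the scans was set against that in WT and in MG-cKO regions, where males were also on scan 2 and females on scan 3. Relative to WT, the BMM-cKO difference was higher for 2418 of 9981 targets (24.2%) and lower for 2143 (21.5%). Relative to MG-cKO it was higher for 503 (5.04%) and lower for 220 (2.20%). Across the 9981 targets Pearson's r between scan differences was -0.409 for BMM-cKO with WT and 0.476 for BMM-cKO with MG-cKO. These are descriptions, since targets are not independent and the groups of a scan share its slide.

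In WT the log2 change between the scans was 0.41 for Gpi1 (limma adjusted p = 0.0168), 0.26 for Aldoa (0.324), 0.25 for Gapdh (0.411), 0.20 for Atp5b (0.434), 0.01 for Pkm (0.969) and -0.02 for Cox8a (0.926). The Gpi1 scan difference was lower in BMM-cKO than in WT regions (difference -1.55, adjusted p = 1.87e-06), as were those of App (-1.73, 0.000279) and the G protein subunit Gnas (-2.46, 5.62e-05). Gnas averaged 5.01 ± 0.686 in male and 12.6 ± 5.00 in female BMM-cKO regions (SD, n = 4 each), against 9.51 in WT males and 4.00 in WT females. Ndn, an imprinted neuronal gene, was 1.67 ± 0.395 in male and 3.19 ± 2.07 in female BMM-cKO regions, against 4.53 in WT males and 1.99 in WT females (difference -1.77, adjusted p = 0.00343). Penk was high in 1 group of the series, the WT females. It averaged 2.56 and 2.5 in BMM-cKO males and females, against 2.32 and 7.62 in WT males and females (difference 1.80 ± 0.23 SE, adjusted p = 2.77e-06). Arpp21, of striatal and cortical neurons, differed by 1.5, the thyroid hormone-binding Crym by 1.35 and the nuclear import gene Hikeshi by 1.21. Ptgds (-2.47), Npcd (-2.11) and Ttr (-3.29) were lower by the test. Within BMM-cKO their changes were -1.50, -1.34 and -2.04, so the WT scan difference also enters these values. The BMM-cKO part rests on 1 or 2 female regions.

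In MG-cKO Atp5b and Aldoa were also lower in males, Atp5b by -1.18 and Aldoa by -1.04 on the log2 scale, and the BMM-cKO scan difference was not shown to differ from these (differences 0.04 ± 0.28 and -0.13 ± 0.29 SE, adjusted p = 0.955 and 0.828). Relative to MG-cKO, genes of cortical excitatory neurons stood out. Slc17a7 averaged 1.13 and 1.66 in BMM-cKO males and females, against 1.03 and 6.64 in MG-cKO males and females (difference 2.11 ± 0.21 SE, adjusted p = 1.98e-07). The complexin gene Cplx1 differed by 2.12, the G protein regulator Rgs4 by 1.69, the transcription factor gene Mef2c by 1.66 and the secreted Dkk3 by 1.53. Pmch had higher means in males of every genotype, although both WT means lay below the negative probe. It averaged 2.70 and 0.767 in BMM-cKO males and females, 7.14 and 0.814 in MG-cKO males and females, and 0.891 and 0.702 in WT males and females. The BMM-cKO scan difference of Pmch was larger than that in WT by 1.43 ± 0.34 (adjusted p = 0.00124) and smaller than that in MG-cKO by a difference of -1.38 ± 0.34 (0.013). Nnat (-2.09), Sparc (-1.53), Timp2 (-1.48) and Tcf7l2 (-1.43) were the other targets lower relative to MG-cKO by the naming rule. Timp2, a metalloproteinase inhibitor gene, read 1.18, 1.31, 1.24 and 1.35 in BMM-cKO males, against 2.24, 2.40, 2.34 and 3.70 in BMM-cKO females, without overlap.

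**Figure D5:**
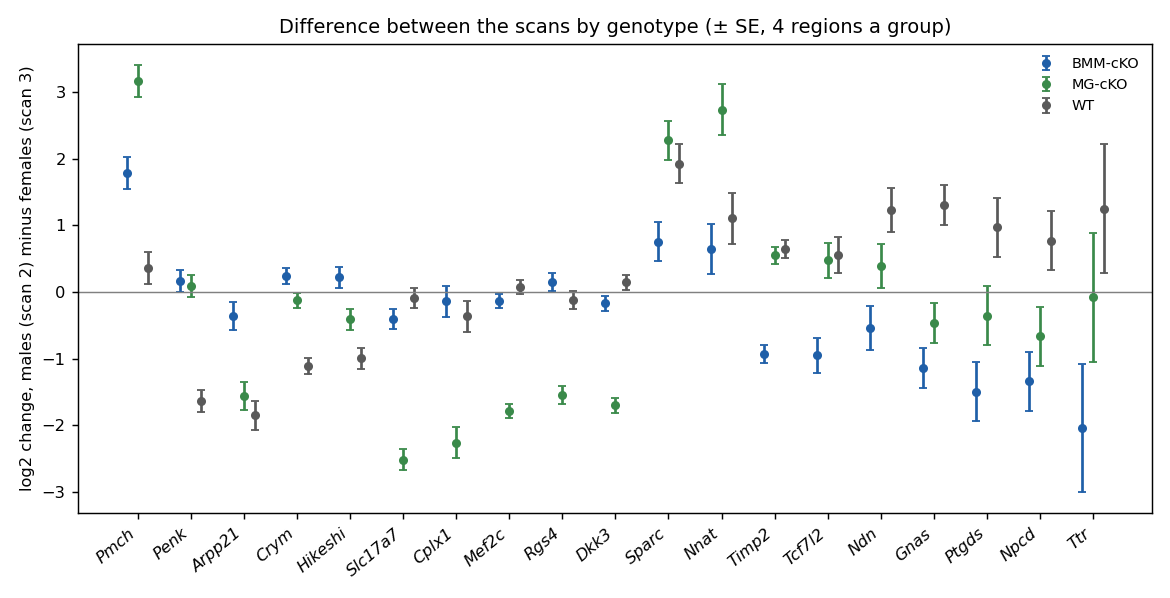
Log2 change, males on scan 2 minus females on scan 3, in BMM-cKO, MG-cKO and WT regions for 19 targets, as estimates with SE from the fit of all 24 regions. Pmch is above 0 in all 3 genotypes, by the least in WT. Slc17a7, Cplx1, Mef2c, Rgs4 and Dkk3 are far below 0 in MG-cKO alone among the 3 genotypes. Gnas, Ptgds and Ndn lie on opposite sides of 0 in BMM-cKO and WT.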

How the data were processed

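The authors deposited a table of signal, with a value for each target and region per the file headers. The software behind it is not given in the sources used here. The authors' deposited signal has an equal geometric mean in the 4 regions of a group but not between groups (388.2 in BMM-cKO males, 166.74 in BMM-cKO females), so levels were divided by the negative probe or centred. At least 99.98% of the values of a region were whole multiples of 1 step within 0.01, which gave the estimated tag totals. The lowest value of a region was 11 tags or more, so the step rests on differences between values and the tags were not taken as counts. Of 19962 targets, the 9981 above the median mean level were tested with limma 3.58.1 in R 4.3.3 (lmFit, eBayes with trend) on log2(value + 1), each region centred on its median, with 1 coefficient per group over 24 regions and Benjamini-Hochberg adjustment over all tested targets. Fold changes are on this scale. P-values measure the spread between regions. The procedure was tested on simulated data with independent noise and 1 spread per target for all groups. That setting does not cover the wider spread of the female BMM-cKO regions or regions that share an animal. Gene lists and the naming rule were chosen with earlier results of these data known, and the text names those of them its results turn on. The rule took the largest called changes without overlap between the groups, and the largest called changes at any level. It also took list members with the highest levels or changes, targets with the largest spread within a group and the largest differences between genotypes. Other members named to spell out a count, or to describe 1 region, were picked after their values were seen. Alternatives were other scalings, filters, pseudocounts and leaving out regions. Of the 19962 target names 19822 matched a RefSeq symbol. Sham regions and the authors' other deposited tables were not used here, and some results are not reported here.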

Additional observations from a re-analysis of the deposited data

Results flagged for a closer look

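Over the 87 genes examined for this, 31 of 174 groups of 4 regions had 1 region far from the other 3 by Dixon's criterion at the 95% level (gap over range), where chance flags about 1 in 20. Many of these genes were named because 1 region stood out, so the count cannot be read against that share. Of these, 23 concerned a female region, and 12 female region 3. The levels are multiples of the negative probe. In male region 1 they were Gfap at 1.17 and Hsp90ab1 at 1.83. In male region 2 they were Emx1 at 1.63, Ppp1r1b at 0.723 and Rpl41 at 3.28. In male region 4 they were Adam34 at 1.84, Ncdn at 1.61 and Hcrt at 3.58. In female region 1 they were Vmn1r226 at 1.13, 2310061I04Rik at 5.04, Mobp at 11.4, Hikeshi at 4.32 and Gfap at 5.75. In female region 2 they were Gad1 at 3.49, Gad2 at 3.15, Slc32a1 at 2.72 and Sst at 2.62. In female region 3 they were Camk2a at 7.8, Ttr at 361, Enpp2 at 104, Col9a3 at 8.19, Ppp1r1b at 9.24, Clic6 at 8.84, Kl at 8.26, Clu at 11.7, P2ry12 at 1.28, Ctsd at 8.92, Bsg at 10.2 and Atp5b at 7.33. In female region 4 they were Npcd at 15.9 and Timp2 at 3.7.

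The difference between the scans was itself different from that in WT regions for 59 of the 87 genes (limma, adjusted p under 0.05). Over all tested targets it was higher for 24.2% and lower for 21.5% relative to WT, and higher for 5.04% and lower for 2.20% relative to MG-cKO. Some of the 87 genes were named for such a difference, so nothing is read from their count. On the log2 scale it was higher in BMM-cKO for Penk (1.8), Arpp21 (1.5), Pmch (1.43), Crym (1.35), Dlx5 (1.21), Hikeshi (1.21), Adam34 (1.18), Aif1 (1.14), Vmn2r19 (0.92), Xcl1 (0.92), Cd180 (0.82), Tmem202 (0.81), Vmn1r206 (0.81), Dnajc2 (0.76), Vmn1r226 (0.75), Tph2 (0.74), Stab1 (0.67), Tmprss11c (0.67), Pecam1 (0.65), Tmem212 (0.65), Agrp (0.57), Actn2 (0.56), Rarres2 (0.47), Emx1 (0.45) and Usp18 (0.42). It was lower for Ttr (-3.29), Ptgds (-2.47), Gnas (-2.46), Npcd (-2.11), Ndn (-1.77), App (-1.73), Timp2 (-1.57), Gpi1 (-1.55), Nrgn (-1.54), Tcf7l2 (-1.51), Slc22a17 (-1.5), Apoe (-1.43), Gm52800 (-1.42), Aldoa (-1.42), Atp1b1 (-1.39), Thy1 (-1.35), Atp5b (-1.35), Bsg (-1.26), Gapdh (-1.24), Clu (-1.24), Sparc (-1.17), Ctsd (-1.09), Zic1 (-1.02), Cox8a (-1.02), 2310061I04Rik (-1.01), Ncdn (-0.94), Hsp90ab1 (-0.81), Pkm (-0.80), Aldh1l1 (-0.67), Sox9 (-0.66), Rpl41 (-0.66), Nptx2 (-0.56), Ctsl (-0.53) and En2 (-0.48). Against MG-cKO regions 27 genes differed. The BMM-cKO difference was higher for Cplx1 (2.12), Slc17a7 (2.11), Rgs4 (1.69), Mef2c (1.66), Dkk3 (1.53), Nrgn (1.44), Gad1 (1.36), Arpp21 (1.21), Camk2n1 (1.15), Dnajc2 (0.69), Dlx5 (0.56), Tmem202 (0.49), Adam34 (0.45), Emx1 (0.39) and Agrp (0.34). It was lower for Nnat (-2.09), Sparc (-1.53), Timp2 (-1.48), Tcf7l2 (-1.43), Pmch (-1.38), Apoe (-1.32), Clu (-1.01), Zic1 (-1.0), Nptx2 (-0.70), Wfs1 (-0.70), Ctss (-0.58) and C1qb (-0.43). The regions of a group may share an animal, so these calls rest on p-values that may be too small.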

How the results depend on the processing

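Between male and female BMM-cKO regions the counts moved by more than 1.5 times for the higher targets on the deposited scale (9894), after division by the negative probe (36), with quantile normalization (979), with the negative probe subtracted (326) and with only the groups compared (848), and for the lower targets on the deposited scale (0), after division (2086) and with subtraction (394). Subtraction tests 1315 targets. Relative to WT the higher count became 8954 as deposited, 377 with subtraction and 3770 without the filter, and the lower count 16 and 501 as deposited and with subtraction. Relative to MG-cKO the higher count became 9793 as deposited, 117 with subtraction and 814 without the filter, and the lower count 2 as deposited, 101 after division and 467 with quantile normalization. Leaving out 1 BMM-cKO region gave 224 to 647 higher and 773 to 1198 lower, relative to WT 2232 to 2427 higher and 1920 to 2243 lower, and relative to MG-cKO 315 to 577 higher and 127 to 275 lower. The count of higher targets was 224 without male region 3, 278, 310 and 308 without male regions 1, 2 and 4, 300 without female region 1 and 357 without female region 4. Relative to MG-cKO the higher count was 315 without male region 3, and the lower count 136, 132, 127 and 137 without male regions 1 to 4. The difference in how many percent of targets lay above 2 times background ran from -2.8 to -2.02 percentage points over these. Its exact permutation p was 0.0571 without any 1 male region, past the 0.05 threshold, and 0.0286 without any 1 female region. On the deposited scale, whose shift of 1.22 between the groups sets the sign, the log2 changes turned to Col9a3 0.59, Arpp21 0.85, Gnas 0.057, Ndn 0.66, Cplx1 1.06, Dkk3 1.03, Mef2c 1.07, Slc17a7 0.80, Tcf7l2 0.25, Timp2 0.28, Camkv 0.44, Zic1 0.52, Adarb1 0.91, Ppp1r1b 0.11, Wfs1 0.70, En2 0.50, Clic6 0.40, Kl 0.56, Gfap 0.61, Clu 0.17, Apoe 0.45, Aldh1l1 0.77, Sox9 0.85, Ctsd 0.46, Ctsl 0.77, Nptx2 0.73, Bsg 0.25, Thy1 0.18, Ndrg4 0.23, Aldoa 0.039, Gpi1 0.067, Gapdh 0.21, Pkm 0.41, Atp5b 0.056, Cox8a 0.16, Rpl41 0.45 and Hsp90ab1 0.41. The sign also turned with subtraction for Cplx1 0.22, Dkk3 0.58 and Sst -0.035, and with quantile normalization for Apoe 0.24. With 1 region left out the log2 change ran from -2.77 to 0.021 for Ttr, from -0.97 to 0.25 for Col9a3, from -0.31 to 0.16 for Cplx1, from -0.95 to 0.055 for Kl, from -0.039 to 0.59 for Gad1 and from -0.039 to 0.59 for Gad2, and turned sign within these ranges. The cause was not tested for the reversals under subtraction, quantile normalization and left-out regions. No paired analysis was possible because region numbers only follow the order of deposition and labels tie no male to a female region. A count-based test was not run, although it was planned and the values were whole multiples of a step, because the table holds scaled signal, no value lies near 1 tag and the tag numbers were not taken as counts. Depth limits targets near the negative probe, where a change of the transcript is understated.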
